A study of Mus musculus with 6 samples.

Results

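The miR-379 to miR-410 cluster is a run of miRNA hairpins in the imprinted Dlk1-Dio3 domain of the mouse, and its mature miRNAs were followed here in the nucleus accumbens (NAc) after morphine conditioned place preference (CPP). Its members were taken by name, as every miRNA of the count table that derives from 35 listed hairpins, whatever its level. This gave 68 of the 1364 miRNAs of the table, 33 of them 5p arms and 35 of them 3p arms. In the GRCm38 assembly the hairpins lie between positions 109709060 and 109743795 of chromosome 12, a span of 34.7 kb. The plus strand carries 34 of them, and Mir299b lies on the minus strand opposite Mir299a. By the GENCODE vM21 annotation 8 hairpins are in exons of the non-coding RNA gene Mirg, 4 are in its introns, and 23 have no other annotated gene on their strand.

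The libraries came from male C57BL/6N mice aged 7 to 8 weeks. In the morphine group the mice were conditioned for 6 days with 10 mg/kg morphine, with saline in the other daily session, and in the saline group with saline alone. NAc tissue was collected on day 7, 0.5 h after the CPP test, and each group has 3 small RNA libraries. The submitters' design text gives 6 mice for the 3 libraries of a group, whereas a figure legend of the study speaks of 1 mouse per library. If mice were pooled, the spread between libraries is smaller than that between animals.

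In imprinted domains each imprinted gene is expressed from 1 parental copy, and the miRNAs of the Dlk1-Dio3 domain are expressed from the maternal chromosome. The cluster is found in placental mammals and is expressed mainly in brain, where its transcription follows neuronal activity through the factor MEF2. Several members, among them miR-134, miR-329 and miR-381, are known from work on dendrite growth, dendritic spines and synaptic strength. Each hairpin is cut into a 5p and a 3p arm, of which usually 1 is retained, and bases 2 to 8 of the retained arm, the seed, pair with target mRNAs.

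The sequences below, from RefSeq (GRCm38.p6), are those of members described closely here and of the relatives with which they are compared, with the seed in capitals and the rest in lower case. A mature sequence was found for 64 of the 68 members. It was not found for miR-376c-3p, miR-485-5p, miR-487b-3p and miR-539-3p.
miR-381-3p: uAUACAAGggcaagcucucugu
miR-300-3p: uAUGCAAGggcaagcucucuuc
miR-495-3p: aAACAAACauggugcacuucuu
miR-543-3p: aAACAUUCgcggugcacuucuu
miR-329-5p: aGAGGUUUucugggucucuguu
miR-376b-5p: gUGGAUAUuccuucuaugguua
miR-376c-5p: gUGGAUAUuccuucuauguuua
miR-382-3p: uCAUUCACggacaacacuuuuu
miR-382-5p: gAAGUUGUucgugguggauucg
miR-379-5p: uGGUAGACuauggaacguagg
miR-411-5p: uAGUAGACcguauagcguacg
miR-379-3p: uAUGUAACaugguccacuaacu
miR-411-3p: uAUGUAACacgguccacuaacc
miR-369-5p: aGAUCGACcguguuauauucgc
miR-134-5p: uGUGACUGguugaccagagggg

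Within the cluster, miR-379-3p and miR-411-3p share the seed AUGUAAC and differ, counted from the 5′ end of miR-379-3p, at U10C and U22C. miR-376b-5p and miR-376c-5p share the seed UGGAUAU and differ at G19U. miR-379-5p and miR-1193-5p share the seed GGUAGAC. From miR-300-3p to miR-381-3p the seed differs only at G4A, and the rest of the sequence only at U21G and C22U. In brain, adenosines of several hairpins of this cluster are edited to inosine, which sequencing reads as G. A miR-381-3p read carrying A4G has the same first 20 bases as miR-300-3p and then differs at G21U and U22C. The deposited table gives no counts per base, so what edited reads contribute to any count was not tested.

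The total count per library was between 4183333 and 9842050, and 3 counts correspond to 0.315 to 0.549 counts per M counts (CPM) after TMM scaling, edgeR's correction for differences in library composition. These floors cover counting error only. The TMM factors were 1.31, 0.80 and 1.32 in saline replicates 1, 2 and 3 and 0.92, 0.94 and 0.84 in morphine replicates 1, 2 and 3. Levels are given as TMM-scaled CPM, which holds no term for length, and the mature sequences of the cluster differ little in length (18 to 25 bases). Overlap of levels between the groups was judged on these scaled values and can depend on the scaling. Saline replicate 2 stood apart from the other saline libraries in the cluster too. Over the 48 members with a mean count of at least 50, the Pearson correlation of log2 CPM was 0.991 between saline replicates 1 and 3, but 0.814 and 0.836 between replicate 2 and each of these. Its correlation with the morphine libraries was 0.916 to 0.934, above that of saline replicates 1 and 3 with the morphine libraries (0.845 to 0.885). These correlations describe points that share libraries and were not tested. Many results in which this library was the extreme of its group are therefore given with and without it, but not all of them.

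The cluster's share of each library overlapped between the groups, whereas the parts that miR-381-3p and miR-411-5p took of it did not. Its 68 members took 3.69%, 4.39% and 4.33% of all counts in saline replicates 1, 2 and 3 and 4.62%, 4.46% and 4.32% in morphine replicates 1, 2 and 3. The groups overlapped, with means of 4.13% ± 0.390 and 4.47% ± 0.152 (SD, n = 3 each; exact two-sided permutation test, p = 0.3, where 0.1 is the smallest p that 3 against 3 libraries allow). A single miRNA, miR-381-3p, made up 16.0%, 20.9% and 17.7% of the cluster's counts in the saline libraries, compared with 51.1%, 40.1% and 41.9% in the morphine libraries. Without it the rest of the cluster held 3.38% ± 0.248 of the saline counts and 2.48% ± 0.208 of the morphine counts (SD, n = 3 each), with no overlap (exact two-sided permutation test, p = 0.1). This depended on the scaling. Set against TMM-scaled library sizes, an alternative added after seeing the data, the rest of the cluster held 2.37%, 4.34% and 2.69% in the saline libraries, compared with 2.46%, 2.86% and 2.98% in the morphine libraries, which overlap (exact two-sided permutation test, p = 0.9). The share of miR-411-5p within the cluster went the other way, from 10.4%, 22.1% and 11.7% in the saline libraries to 2.66%, 2.59% and 1.97% in the morphine libraries. miR-381-3p was the most abundant member in every library except saline replicate 2, where miR-411-5p was. In bulk tissue, fewer cells of a type and less RNA per cell cannot be told apart.

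Levels spanned a wide range, with 9 members at a mean of at least 1000 CPM, 13 under 1 CPM and a median of 40.5 CPM. In 5 members no library had more than 3 counts. With the study's criteria for differentially expressed miRNAs (DEmiRNAs; |log2FC| ≥ 0.58, where log2FC is the log2 fold change of morphine over saline, and unadjusted p ≤ 0.05, here by the quasi-likelihood test of edgeR fitted to the whole table), 9 of the 68 members, or 13.2%, were downregulated in the morphine group, where 9.68% of all 1364 miRNAs were. Upregulated members numbered 5, or 7.35%, where again 9.68% of all miRNAs were. In either direction, 20.6% of the members and 19.4% of all miRNAs met the criteria, so the cluster's share was near that of the whole table. The shares in this paragraph are not matched for level. A mean count of at least 50 was reached by 48 of the 68 members, against 429 of the 1364 miRNAs. After edgeR's filter for low counts, 90 of 594 miRNAs were lower and 96 higher, among them 6 and 6 members. The number of members that passed this filter was not counted, so these 6 and 6 give no share, and 68 is not their base. In the fit to the whole table, 8 of the 48 members with a mean count of at least 50 were lower and 5 higher. With Benjamini-Hochberg adjustment over all miRNAs, 3 members (4.41%) had an adjusted p under 0.05, miR-411-5p, miR-485-5p and miR-329-5p, where 5.21% of all miRNAs did. Without overlap between the groups, 10 members were lower and 11 were higher in every morphine library, where 9.9% and 12.2% of all miRNAs were. Together these were 30.9% of the members, against 22.1% of all miRNAs. The median log2FC was -0.28 over the members and -0.15 over all miRNAs, and both turned to above 0 without saline replicate 2, at 0.31 and 0.20. Leaving out saline replicate 2 raised the shares that met each criterion, to 19.4% of 67 members lower, 29.9% higher and 46.3% with an adjusted p under 0.05, where 16.1%, 20.9% and 29.1% of all 1328 miRNAs tested were.

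**Figure D1:**
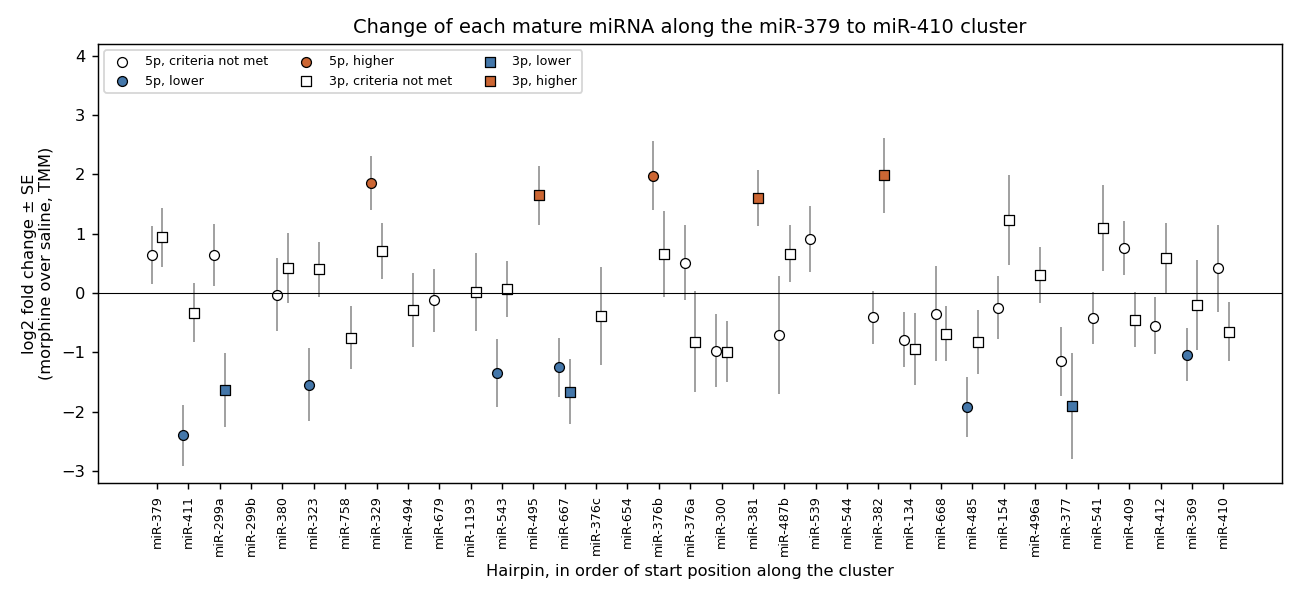
The log2FC of each mature miRNA (y axis, morphine over saline, with its SE) is plotted for the 35 hairpins in their order along chromosome 12 (x axis), with circles for 5p arms, squares for 3p arms and filled symbols for the members that met the study's criteria. Members with a mean under 1 CPM are left out. Upregulated and downregulated members lie side by side along the cluster, from miR-411-5p at -2.39 to miR-382-3p at 1.98.

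The upregulated members were miR-381-3p, miR-495-3p, miR-329-5p, miR-376b-5p and miR-382-3p. miR-381-3p, one of the members needed for activity-dependent dendrite growth in cultured neurons, was at 4525, 11444 and 5809 CPM in the saline libraries and at 25725, 19096 and 21488 CPM in the morphine libraries. All 3 morphine libraries exceeded saline replicate 2, the highest of the saline group. The log2FC was 1.61 (SE 0.47, adjusted p = 0.0504, edgeR), and 2.097 without saline replicate 2. In rank it moved from the 29th, 20th and 24th most abundant miRNA of the saline libraries to the 14th, 15th and 15th of the morphine libraries.

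miR-495-3p, known to target the mRNA of the neurotrophin Bdnf, was at 476, 1652 and 724 CPM in the saline libraries and at 2037, 3316 and 3590 CPM in the morphine libraries. The lowest morphine library was above the highest saline library. Its log2FC was 1.65 (SE 0.50, adjusted p = 0.0533, edgeR), and its share of the cluster's counts went from between 1.69% and 3.01% to between 4.05% and 6.998%. miR-543-3p, which differs from it at A6U, A7U, A9G and U10C, had a log2FC of 0.07 (SE 0.47, adjusted p = 0.954, edgeR), which was below 0 under other scalings.

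miR-329-5p had the smallest adjusted p of the upregulated members. It was at 203, 305 and 208 CPM in the saline libraries and at 1068, 700 and 829 CPM in the morphine libraries. Saline replicate 2 was again the highest saline library, but far below the lowest morphine library. The log2FC of 1.86 (SE 0.46, adjusted p = 0.0239, edgeR) became 2.07 without it. The other arm of this hairpin, miR-329-3p, which is the arm studied in dendrites, was at 254, 148 and 286 CPM and at 301, 361 and 467 CPM. These scaled values did not overlap either, but the log2FC of 0.71 (SE 0.47, adjusted p = 0.458, edgeR) did not meet the criteria. Before TMM scaling, the miR-329-3p counts per M counts of each library overlapped between the groups. With library total scaling its log2FC was 0.28.

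miR-376b-5p was at 70.1, 376 and 60.2 CPM in the saline libraries and at 577, 654 and 766 CPM in the morphine libraries. miR-382-3p was at 117, 1027 and 125 CPM and at 1484, 1424 and 2109 CPM. In both miRNAs saline replicate 2 lay between the other saline libraries and the morphine group, and the size of the difference depended on it. The log2FC of miR-376b-5p was 1.98 (SE 0.58, adjusted p = 0.0507, edgeR) with all libraries and 3.35 without that library. For miR-382-3p it was 1.98 (SE 0.63, adjusted p = 0.0698, edgeR) and 3.79.

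**Figure D2:**
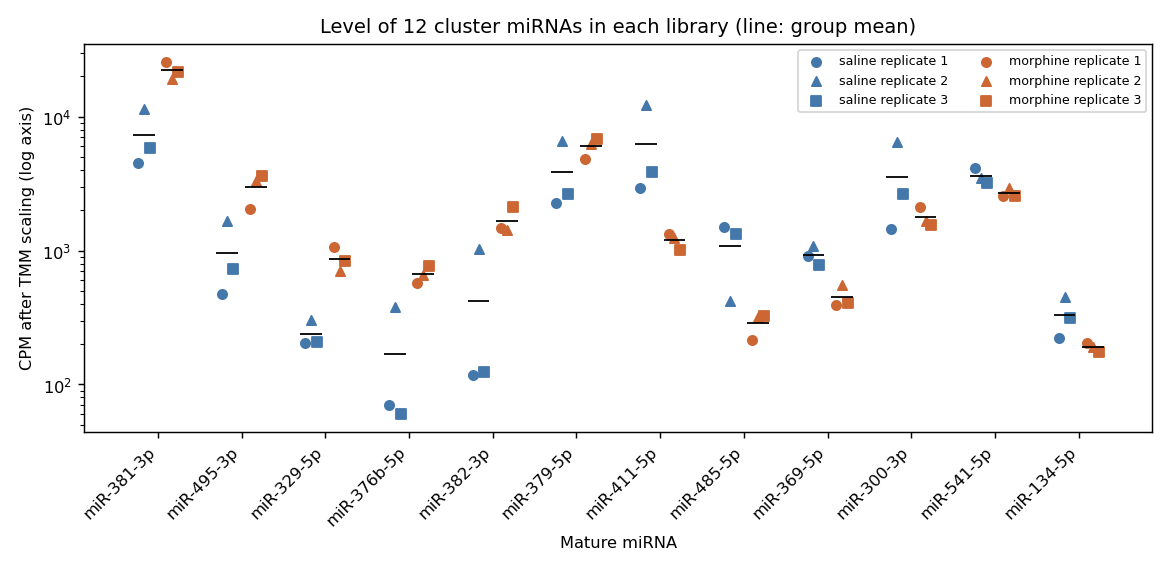
Level of 12 members (x axis) in each of the 6 libraries, as TMM-scaled CPM on a log axis (y axis), with saline libraries in blue, morphine libraries in orange, a symbol per replicate and a line at each group mean. The triangle of saline replicate 2 is the highest saline value in 10 of these 12 miRNAs and the lowest in miR-485-5p.

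Among the downregulated members, miR-411-5p had the smallest p of the cluster. It was at 2923, 12103 and 3824 CPM in the saline libraries and at 1339, 1234 and 1012 CPM in the morphine libraries. The morphine libraries were close to each other and all below the lowest saline library. The log2FC was -2.39 (SE 0.51, adjusted p = 0.0107, edgeR), and -1.50 without saline replicate 2, where the level was highest.

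miR-485-5p, known to restrain dendritic spine density and the synaptic vesicle protein SV2A, was at 1496, 417 and 1328 CPM in the saline libraries and at 216, 319 and 323 CPM in the morphine libraries. Here saline replicate 2 was the lowest saline library, though still above the morphine libraries. The log2FC was -1.92 (SE 0.50, adjusted p = 0.0331, edgeR), and -2.30 without it. The opposite arm, miR-485-3p, was at 1199, 215 and 1141 CPM and at 366, 513 and 571 CPM, and its log2FC of -0.82 (SE 0.54, adjusted p = 0.462, edgeR) did not meet the criteria. Only saline replicate 2 made its groups overlap. Against saline replicates 1 and 3 alone, the log2 difference of the morphine mean (on CPM + 0.5) was -1.30 for this arm and -2.32 for miR-485-5p.

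miR-369-5p was at 910, 1089 and 774 CPM in the saline libraries and at 391, 555 and 406 CPM in the morphine libraries, without overlap, and had a log2FC of -1.04 (SE 0.45, adjusted p = 0.205, edgeR). miR-667-5p, at 46.9, 41.7 and 41.6 CPM against 17.1, 17.9 and 19.6 CPM, had the tightest groups of the downregulated members and a log2FC of -1.25 (SE 0.50, adjusted p = 0.161, edgeR). The other arm of its hairpin, miR-667-3p, had a log2FC of -1.66 (SE 0.55, adjusted p = 0.0755, edgeR), but saline replicate 2, at 52.9 CPM, lay within the morphine range of 48.0 to 68.0 CPM. miR-543-5p and miR-323-5p, minor arms of their hairpins, had log2FC values of -1.35 and -1.54. The calls of miR-369-5p, miR-667-5p and miR-543-5p did not hold when any library other than saline replicate 2 was left out, that of miR-323-5p when saline replicate 3 or morphine replicate 1 was, and that of miR-667-3p when morphine replicate 1 was.

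The remaining downregulated members rested on saline replicate 2. miR-299a-3p was at 23.8, 173 and 30.8 CPM in the saline libraries and at 25.3, 20.8 and 27.2 CPM in the morphine libraries, and its log2FC of -1.63 became -0.16 when that library was left out. For miR-377-3p, saline replicates 1, 2 and 3 gave 3, 128 and 11 counts, and the morphine libraries 13, 10 and 17 counts. The log2FC of -1.90 turned to 1.03 without saline replicate 2. Both calls were also lost without morphine replicate 1, and that of miR-377-3p without morphine replicate 2.

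Other abundant or well studied members did not meet the criteria. miR-379-5p, the first miRNA of the cluster, was at 2271, 6602 and 2642 CPM in the saline libraries and at 4831, 6268 and 6837 CPM in the morphine libraries. Saline replicate 2 fell inside the morphine range, and the log2FC was 0.64 (SE 0.48, adjusted p = 0.522, edgeR). Without that library it was 1.28 (adjusted p = 1.17e-06, edgeR), which met the criteria.

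miR-134-5p, which limits dendritic spine size through the kinase Limk1, was at 223, 449 and 313 CPM in the saline libraries and at 205, 191 and 175 CPM in the morphine libraries. Every morphine library was below every saline library, but the log2FC of -0.79 (SE 0.47, adjusted p = 0.400, edgeR) did not pass the test. miR-134-5p met the criteria in 1 of the 21 alternatives run. Of the 48 members with a mean count of at least 50, those whose log2 CPM followed miR-134-5p most closely over the 6 libraries were miR-411-5p (Pearson r = 0.973), miR-300-3p (0.928) and miR-410-3p (0.876). These values describe 6 points that share their libraries, and all 4 miRNAs were highest in saline replicate 2.

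miR-541-5p was at 4110, 3497 and 3166 CPM and at 2572, 2920 and 2560 CPM, and miR-382-5p was at 969, 995 and 1290 CPM and at 902, 787 and 760 CPM. Neither overlapped between the groups after TMM scaling, with small log2FC values of -0.42 and -0.41. Before TMM scaling, the miR-382-5p counts per M counts of each library overlapped. miR-541-5p met the criteria in 1 of the 21 alternatives run. miR-300-3p, miR-409-3p and miR-410-3p had log2FC values of -0.99, -0.45 and -0.65 and overlapping groups, and did not meet the criteria. Without saline replicate 2 the values were -0.21, -0.67 and -0.04, of which that of miR-409-3p met them (adjusted p = 0.0180, edgeR). In that fit 29.1% of all miRNAs had an adjusted p under 0.05. miR-300-3p also met them with any of the 3 other scalings tried in edgeR, with an offset for GC content in the fit and without saline replicate 1, and miR-410-3p in the fits with that offset (-1.23, adjusted p = 0.0186, edgeR). miR-376a-3p was near its floor in part of the saline group, with 3, 101 and 11 counts against 34, 23 and 15 counts in the morphine libraries. Its log2FC was -0.82 with all libraries and 1.81 without saline replicate 2.

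The balance of the arms of a hairpin can be compared within a library, where scaling between libraries has no part. Over the 17 cluster hairpins with a mean count of at least 50 in each arm, the log2 ratio of the 5p to the 3p count differed between the groups in 6 (35.3%; limma with Benjamini-Hochberg adjustment over 111 hairpins), where 26.1% of all 111 hairpins did. All 6, miR-323, miR-382, miR-411, miR-412, miR-485 and miR-543, had relatively less of the 5p arm in the morphine libraries. Over the 17 hairpins the difference was below 0 in 10 and above 0 in 7. Among the latter, miR-299a was at 1.71 without overlap between the groups (adjusted p = 0.150, limma). In 8 of the 17 hairpins, or 47.1%, the ratios did not overlap between the groups, where 47.7% of all hairpins did not. Without saline replicate 2 the ratio differed in 75.0% of 16 cluster hairpins and in 69.7% of all 109 tested.

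The hairpins of miR-411 and miR-382 are shown because the results on the arms turn on them, with both mature arms in capitals and the rest of the hairpin in lower case (RefSeq, plus strand of chromosome 12, GRCm38.p6). Mir411 lies at chr12:109710175-109710256, with no other annotated gene on its strand, and Mir382 at chr12:109733771-109733846, in an exon of Mirg.
Mir411: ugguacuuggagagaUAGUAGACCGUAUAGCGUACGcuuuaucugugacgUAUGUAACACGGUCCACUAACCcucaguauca
Mir382: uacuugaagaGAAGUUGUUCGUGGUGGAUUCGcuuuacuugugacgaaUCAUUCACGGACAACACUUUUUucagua

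The 5p arm made up 95.0%, 95.8% and 94.1% of the miR-411 counts in the saline libraries, compared with 84.8%, 81.6% and 82.5% in the morphine libraries. Here saline replicate 2 was like the other saline libraries, and the log2 ratio of the arms was lower in the morphine group (difference -1.97, SE 0.317, adjusted p = 0.00624, limma). The 3p arm itself had a log2FC of -0.33 (SE 0.50, adjusted p = 0.722, edgeR), against -2.39 for the 5p arm. It was at 155, 527 and 240 CPM in the saline libraries and at 240, 279 and 215 CPM in the morphine libraries. Its sign rested on saline replicate 2. Against saline replicates 1 and 3 alone, the log2 difference of the morphine mean (on CPM + 0.5) was 0.34 for the 3p arm and -1.49 for the 5p arm. miR-543 also had saline libraries close to each other, with 1.03%, 1.003% and 0.944% of its counts on the 5p arm against 0.397%, 0.403% and 0.318% in the morphine libraries (difference of the log2 ratio -1.42, SE 0.297, adjusted p = 0.0177, limma).

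For miR-382 the 5p arm held 89.2%, 49.2% and 91.2% of the counts in the saline libraries, compared with 37.8%, 35.6% and 26.5% in the morphine libraries. The major arm was therefore 5p in saline replicates 1 and 3 and 3p in every morphine library, with saline replicate 2 near an even split. The log2 ratio differed by -3.14 (SE 0.922, adjusted p = 0.0494, limma), and by -4.23 without saline replicate 2. miR-382-5p, the arm known to target the dopamine receptor mRNA Drd1, had a log2FC of -0.41, against 1.98 for the 3p arm.

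The major arm also differed in miR-485, where the 5p arm held 55.5%, 66.0% and 53.8% of the counts in the saline libraries, compared with 37.1%, 38.3% and 36.1% in the morphine libraries (difference of the log2 ratio -1.25, SE 0.337, adjusted p = 0.0443, limma). In miR-412 the 5p arm went from 96.5%, 97.0% and 94.9% to 91.2%, 90.7% and 92.7%. In miR-323 it went from 3.58%, 1.47% and 4.05% to 0.881%, 1.005% and 0.799%. In the hairpin of miR-379, the neighbour of miR-411, the 5p share stayed between 98.4% and 99.0% in all 6 libraries. When any library other than saline replicate 2 was left out, miR-411 alone of the 17 or 16 cluster hairpins tested still had an adjusted p under 0.05 (limma).

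**Figure D3:**
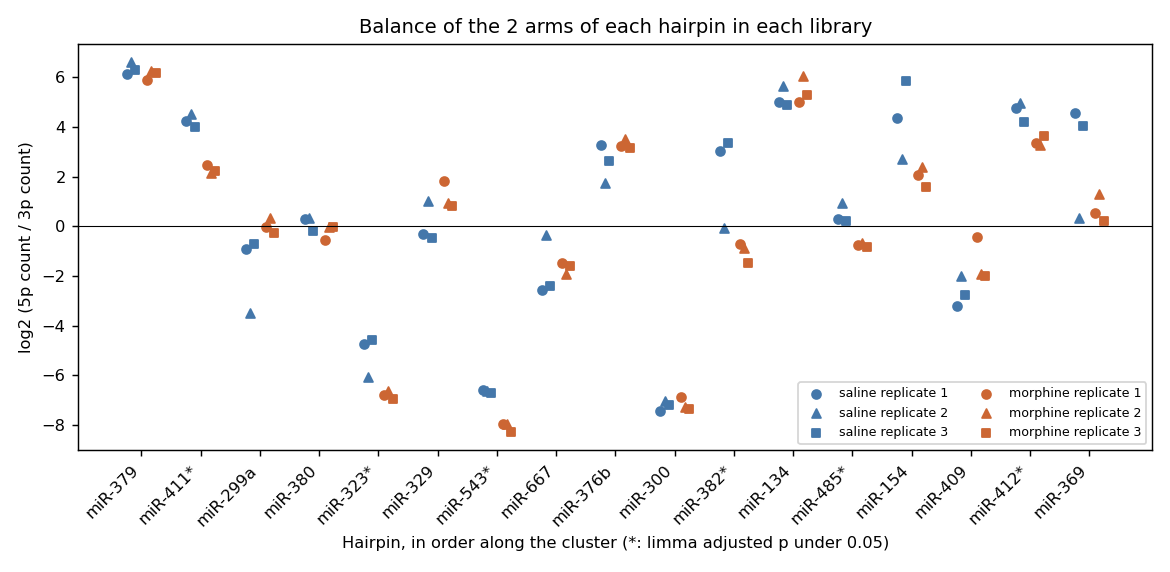
The log2 ratio of 5p to 3p counts (y axis) of 17 cluster hairpins in their order along the chromosome (x axis), with a symbol per replicate, saline libraries in blue and morphine libraries in orange. An asterisk marks the 6 hairpins with an adjusted p under 0.05 (limma), in which all morphine libraries lie below all saline libraries.

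Related members were also set against each other within each library, in 7 pairs chosen after their values were seen. The groups did not overlap in 4 of them, each with the smallest p that this design allows. miR-300-3p amounted to 31.9%, 56.3% and 45.7% of miR-381-3p in the saline libraries and to 8.20%, 8.69% and 7.22% in the morphine libraries. The groups were far apart, with a difference of the log2 ratio of -2.44, although 3 against 3 libraries cannot give less than p = 0.1 (exact two-sided permutation test, p = 0.1). Because an edited miR-381-3p read matches most of miR-300-3p, the counts of this pair may not be fully separate, and whether that is so was not tested.

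miR-411-5p amounted to 129%, 183% and 145% of miR-379-5p in the saline libraries and to 27.7%, 19.7% and 14.8% in the morphine libraries. The hairpins of this pair start 1.12 kb apart, and the order of their levels was opposite in the groups, with a difference of the log2 ratio of -2.91 (exact two-sided permutation test, p = 0.1). For the 3p arms, which share a seed, the log2 ratio of miR-411-3p to miR-379-3p was 2.24, 2.96 and 2.84 in the saline libraries, compared with 1.58, 1.75 and 1.19 in the morphine libraries, without overlap. The log2 ratio of miR-543-3p to miR-495-3p was 1.75, -0.74 and 1.58 in the saline libraries, compared with -0.84, -0.71 and -0.98 in the morphine libraries, with saline replicate 2 inside the morphine range (exact two-sided permutation test, p = 0.2). Of the remaining pairs, miR-376a-3p to miR-376b-3p did not overlap, at -3.13 ± 0.323 and -4.39 ± 0.645 on the log2 scale (SD, n = 3 each; exact two-sided permutation test, p = 0.1). miR-376c-5p to miR-376b-5p (p = 0.4) and miR-369-3p to miR-154-3p (p = 0.3, exact permutation tests) overlapped.

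**Figure D4:**
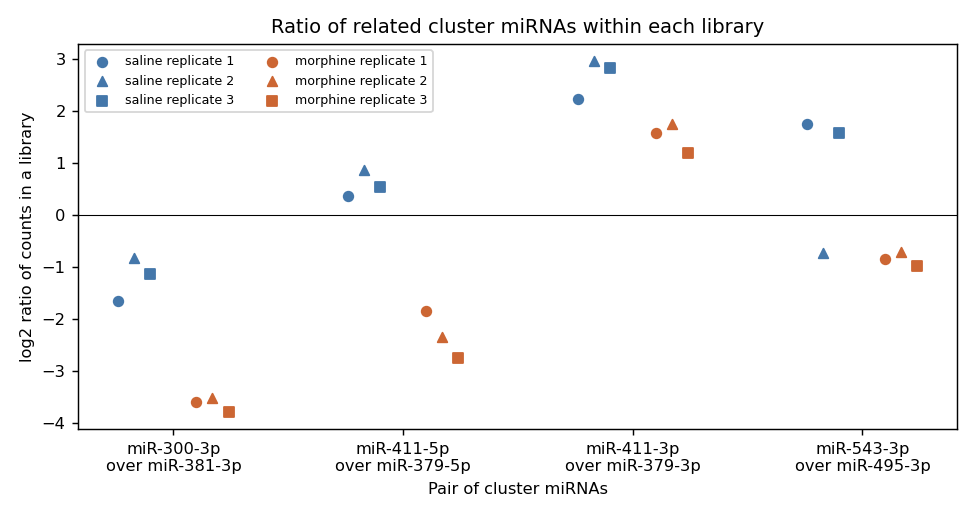
The log2 ratio of counts within a library (y axis) for 4 pairs of cluster miRNAs (x axis), with a symbol per replicate, saline libraries in blue and morphine libraries in orange. The first 3 pairs do not overlap between the groups, while for miR-543-3p over miR-495-3p saline replicate 2 lies with the morphine libraries.

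Members of both directions were found before Mirg and inside it. Of the 24 members inside Mirg, 3 were downregulated and 1 was upregulated, with a median log2FC of -0.41, where 9.68% of all miRNAs were called in each direction. Of the 44 members before it, 6 were downregulated and 4 upregulated, with a median of -0.03. The 5p arms held 6 downregulated and 2 upregulated members, and the 3p arms 3 of each. These counts were not tested against each other. Of the 34 other miRNAs of the Dlk1-Dio3 domain in the table, 4 were downregulated and 7 upregulated, with a median log2FC of -0.12.

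The base composition of the members moved with the differences. The median GC content was 51.2% in the downregulated members, 36.4% in the upregulated members and 45.5% over the members. Over the 45 members with a sequence and a mean count of at least 50, the log2FC correlated with GC content at r = -0.53, against -0.26 over 366 miRNAs of the table chosen the same way. The difference of saline replicate 2 from saline replicates 1 and 3 correlated with GC content at -0.70 over the same 45 members, and that of the morphine libraries from saline replicates 1 and 3 at -0.74. Both differences subtract the same mean of saline replicates 1 and 3, so a GC trend in that mean enters both and the values are not independent. Over the 16 cluster hairpins with both arm sequences, the difference in the arm ratio correlated with the GC difference between the arms at r = -0.60, against -0.22 over 92 hairpins of the table. The arms of miR-411 differ little in GC content (47.6% and 45.5%), whereas those of miR-382 differ more (50% and 36.4%). With an offset for GC content in the fit, miR-381-3p, miR-329-5p, miR-376b-5p and miR-411-5p had log2FC values of 1.51, 1.70, 1.70 and -2.37, and that of miR-495-3p was 1.02. Those of the GC-rich miR-667-5p, miR-667-3p and miR-323-5p shrank to -0.63, -0.79 and -0.37 and no longer met the criteria. These correlations are descriptions over miRNAs of the same 6 libraries, and the part of base composition in the differences was not tested further.

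**Figure D5:**
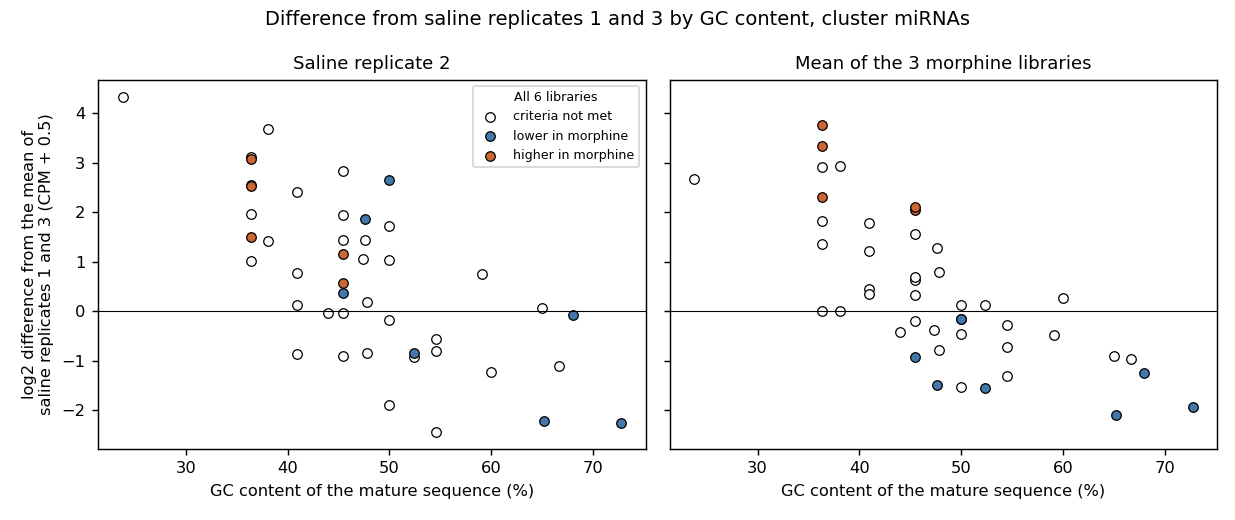
Each point is 1 of 45 cluster miRNAs, placed by the GC content of its mature sequence (x axis, %) and by the log2 difference from the mean of saline replicates 1 and 3 (y axis, on CPM + 0.5), for saline replicate 2 on the left and for the mean of the morphine libraries on the right. Colours mark the members that met the study's criteria over all 6 libraries. In both panels the difference falls with GC content, with r = -0.70 and r = -0.74. The panels share the mean of saline replicates 1 and 3 and are not independent.

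Markers of cell types were checked beside these results. All 5 neuronal markers (miR-124-3p, miR-128-3p, miR-137-3p, miR-138-5p and miR-132-3p) were detected, with a summed level of 62746 to 76381 CPM in the saline libraries and 72115 to 109377 CPM in the morphine libraries. Most of this sum was miR-128-3p. miR-124-3p, abundant in neurons and hardly found in glia, was lower in the morphine group, with 4495 to 7795 CPM against 1324 to 1730 CPM (log2FC -1.88, adjusted p = 0.0195, edgeR). The summed level of 3 oligodendrocyte markers was 1820 to 1903 CPM and 1572 to 1963 CPM. Higher in every morphine library were the sums of 2 endothelial markers (1485 to 5002 CPM against 10984 to 16264 CPM), of 4 microglial and leukocyte markers (155 to 272 CPM against 854 to 1069 CPM) and of the 3 listed of 4 erythroid markers (208 to 311 CPM against 358 to 571 CPM). The sums of 6 choroid plexus and ependymal markers (81.6 to 897 CPM against 273 to 535 CPM) and of 3 muscle markers (72.4 to 970 CPM against 444 to 554 CPM) overlapped and were highest in saline replicate 2. The choroid plexus and ependymal sum was mostly miR-34c-5p (log2FC -0.29), whereas miR-200a-3p, miR-200b-3p and miR-429-3p of that list met the criteria as higher, with log2FC values of 2.57, 1.84 and 2.77. Most of the microglial and leukocyte sum was miR-146a-5p (log2FC 2.29), while miR-142a-3p and miR-223-3p were under 10 CPM in every library. The log2FC was -0.39 for miR-142a-3p, -0.67 for miR-142a-5p and 0.41 for miR-223-3p, and none of these met the criteria. The endothelial sum was mostly miR-126a-3p (log2FC 2.42), whereas miR-126a-5p was at -0.96. In the erythroid list miR-451a was higher (log2FC 1.57), whereas miR-486a-5p and miR-144-3p were at -0.20 and -1.31. miR-144-3p was at 0 in 1 library and miR-34b-5p in 2. Of all these lists, 3 markers met the criteria as lower and 6 as higher in the morphine group, where 9.68% of all miRNAs did in each direction. The lower ones were miR-124-3p, miR-219a-5p (log2FC -3.69, adjusted p = 0.0376, edgeR) and miR-206-3p (log2FC -2.06). miR-219a-5p was at 63.9 CPM in saline replicate 2 and at most 3.98 CPM in any other library. The part of other cell types in the differences of the cluster was not tested.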

How the data were processed

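Small RNA libraries of the NAc from 3 saline and 3 morphine samples were analysed. The authors removed adapter, poly-N and low-quality reads, kept reads of 15 to 35 nt, used Bowtie to set aside repeats and other classes of non-coding RNA, and matched what was left to miRBase. They deposited raw read counts per mature miRNA. The TPM values the authors also deposited equal each count per M counts of its library and were not used. The genome build, the miRBase release and the tool behind the DEmiRNA calls are not given in the sources used here.

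All 1364 miRNAs were fitted with edgeR 4.0.16 (R 4.3.3; TMM, quasi-likelihood F test, no covariate), and p-values were adjusted over all of them. Arm ratios, log2((5p count + 0.5) / (3p count + 0.5)), were tested with limma 3.58.1. The p-values measure the spread between libraries. No 2 libraries had counts equal within sampling noise. Alternatives were other scalings and filters, DESeq2 1.42.0, a GC content offset, the replicate number as a block and leaving out each library. The scripts were tested on simulated data.

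The members and lists were chosen with earlier results of these data known. Named members are the 10 most abundant, those meeting the study's criteria, those best known from work on neurons, and hairpins whose arm ratio passed its test. miR-485-3p, miR-411-3p and the related pairs were added after their values were seen. Positions and hairpins come from RefSeq and GENCODE vM21, matched by name. Rows that may share reads, such as miR-299a and miR-299b on opposite strands, are uncertain.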

Additional observations from a re-analysis of the deposited data

How the results depend on the processing

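miR-381-3p, miR-495-3p, miR-329-5p, miR-376b-5p and miR-411-5p met the criteria in all 21 alternatives run, and miR-485-5p in the 18 that could be run for it. miR-382-3p lost its call in 1, the minimum of 10 counts. The number of members with an adjusted p under 0.05, 3 in the fit reported, was 5 with relative log expression scaling, 10 with library total scaling, upper quartile scaling or DESeq2, 1 with at least 10 counts in total or without rows that may share reads, 7 with miRBase names only, 5 without the 10 most abundant miRNAs, 8 after thinning and 9 with the GC content offset. The median log2 fold change of all miRNAs was -0.15 with TMM, -0.23 with relative log expression, -0.40 with library totals and -0.35 with upper quartile scaling. Members lower and higher, 9 and 5 with TMM, were 13 and 5 with library totals and 12 and 5 with upper quartile scaling. Same-numbered libraries deviated from their group means with correlations of -0.24, -0.36 and 0.20, and the highest value of any other pairing was 0.41. Deviations within a group of 3 are tied to each other, so these values cannot settle whether same-numbered samples were handled together. The sample labels do not say. With the replicate block 2 members were lower, 7 higher and 0 passed the adjusted threshold (edgeR). With the block and the GC content offset these counts were 5, 9 and 5. Leaving out 1 library gave 2 to 13 lower, 5 to 20 higher and 0 to 31 at an adjusted p under 0.05 (edgeR), the highest counts being those without saline replicate 2 and the 2 and 0 those without morphine replicate 1. A GC content offset without saline replicate 2, chosen after seeing the data, gave 11 lower, 13 higher and 22 at an adjusted p under 0.05. The hairpins with a different arm ratio, 6 in the fit reported, were 2 with a minimum mean of 10 counts, 3 with 200, 0 with the replicate block (limma; 6 with an unadjusted p ≤ 0.05) and 1 to 12 when 1 library was left out (12 without saline replicate 2, 1 without any other). The difference in the cluster's share of counts was 0.109 to 0.461 percentage points when 1 library was left out, 2.09 without the 10 most abundant miRNAs (exact permutation test, p = 0.1), 1.12 with TMM-scaled library sizes (exact p = 0.4) and 0.104 without rows that may share reads (exact p = 0.8), against 0.334 as reported. Among the named members followed over the settings, the sign of 4 not called, and of 1 called, depended on the setting. miR-411-3p and miR-485-3p were not followed in this way. miR-543-3p was at -0.0088 with relative log expression or DESeq2, -0.36 with library totals, -0.18 with upper quartile scaling, -0.16 with the GC content offset, -0.10 with the block and the offset, -0.53 with the offset and no saline replicate 2, and -0.18 to 0.43 when 1 library was left out. miR-329-3p was at -0.019 with the offset and -0.50 with the offset and no saline replicate 2. miR-376a-3p was at 0.45 with the block, 0.010 with the block and the offset, 1.07 with the offset and no saline replicate 2, and -1.24 to 1.81 when 1 library was left out. miR-134-5p was at 0.27 with the offset and no saline replicate 2, and miR-377-3p at -2.34 to 1.03 when 1 library was left out. Causes were not tested. Counts under about 3 per library limit the 5 least abundant members.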
